A study of Homo sapiens with 12 samples.

Results

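The genes described here are 34 human genes of glycolysis and pyruvate handling, chosen by symbol for their place in the pathway. The choice was made with earlier results of these data known. Shares of called members set beside those of all genes are therefore descriptive. All 34 were found among the 61487 gene IDs of the count table, and 33 of them passed the filter on low counts. The remaining member, PFKFB2, had 14 counts over all 12 libraries and was not tested. By role the set holds 2 glucose transporters, 3 hexokinases, 1 isomerase, 3 phosphofructokinases, 3 enzymes that set the level of a phosphofructokinase activator, 4 genes of the aldolase to glyceraldehyde phosphate steps, 6 genes of the steps from there to pyruvate, 2 lactate dehydrogenases, 2 lactate transporters, 3 pyruvate dehydrogenase kinases, 3 pyruvate dehydrogenase subunits and 2 subunits of the mitochondrial pyruvate carrier.

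Glycolysis cuts glucose into pyruvate in the cytosol. Pyruvate then has a pair of main exits: lactate dehydrogenase turns it into lactate, which monocarboxylate transporters carry across the cell membrane, or the mitochondrial pyruvate carrier brings it into the mitochondrion, where pyruvate dehydrogenase converts it to acetyl-CoA. Pyruvate dehydrogenase kinases switch that enzyme off by phosphorylation. Leukemic blasts of the myeloid lineage are known for active glycolysis, and several of these genes are textbook targets of the hypoxia-inducible factors and of MYC.

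RNA was sequenced from MOLM14, an established human cell line of monocytic acute myeloid leukemia, carrying an inducible short hairpin RNA that targets NRIP1, the gene of RIP140, which binds nuclear receptors and mostly dampens their activity. The 4 groups of 3 libraries each were ATRA+DOX (all-trans retinoic acid, ATRA, at 1 µM for 48 h, together with doxycycline at 50 ng/mL to switch on the hairpin), ATRA (the same retinoic acid dose without doxycycline), DOX (doxycycline without retinoic acid) and untreated (neither agent). Every group carried the hairpin construct. No group had doxycycline with a control hairpin or with none, so the action of doxycycline itself and the loss of RIP140 cannot be told apart. Whether the cells were 1 clone or a pool, and how long doxycycline had been given before ATRA, is not given in the sources used here. All results come from 1 cell line, and the p-values measure the spread between libraries that the design text calls biological replicates, with nothing said of separate cultures.

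The most deeply sequenced library, DOX replicate 2, held 7.21 times the gene counts of the least deep, DOX replicate 3, which had 2685984. Mitochondrial ribosomal RNA made up 1.24 to 2.02% of counts in ATRA+DOX, 2.09 to 2.75% in ATRA, 1.02 to 2.18% in DOX and 2.54 to 4.60% in untreated libraries, so the DOX and untreated libraries did not overlap in this share. Levels are given as counts-per-million (CPM), a gene's counts divided by the scaled total of its library. NRIP1 averaged 18.9 CPM in ATRA+DOX, 43.8 in ATRA, 16.6 in DOX and 57.3 in untreated cells, in the direction the labels give. All 10 markers listed for a monocytic leukemia line averaged at least 1 CPM in each group, and CD3E, NCR1, PF4, COL3A1 and EPCAM had no count in any library. In bulk RNA, fewer cells with a transcript and less of it per cell cannot be told apart.

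**Figure D1:**
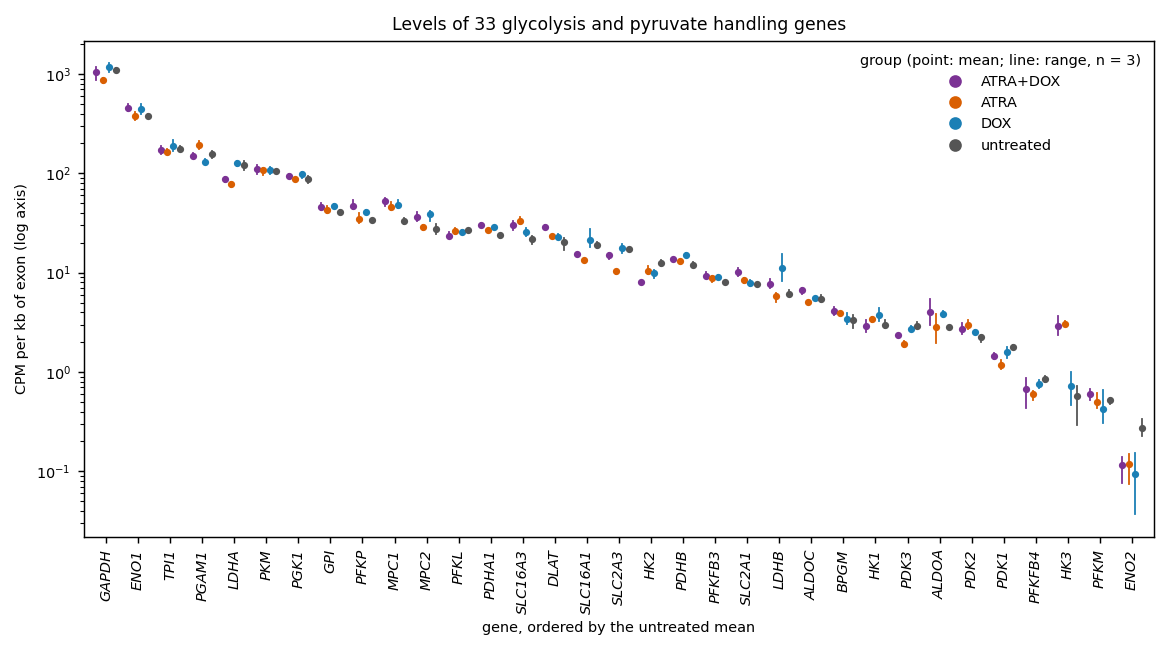
Level of each tested gene in the 4 groups, in CPM per kilobase of exon on a log axis; points are group means and lines the range of 3 libraries. GAPDH stood highest in every group at 872 to 1186, and HK3 moved farthest, with means of 2.90 in ATRA+DOX, 3.03 in ATRA, 0.720 in DOX and 0.573 in untreated cells.

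Per kilobase of exon, the enzymes of the lower pathway stood highest in untreated cells. GAPDH, which makes the first NADH of the pathway, averaged 1092 ± 54.4 CPM per kb (SD, n = 3 here and below). ENO1 (enolase) followed at 379 ± 14.9, TPI1 (triose phosphate isomerase) at 178 ± 9.80, PGAM1 (phosphoglycerate mutase) at 155 ± 13.3, LDHA (lactate dehydrogenase A) at 121 ± 12.2, PKM (pyruvate kinase) at 105 ± 1.69 and PGK1 (phosphoglycerate kinase) at 88.1 ± 7.20. The ranges of these 7 neighbours did not overlap in untreated libraries. Farther down, the ranges of PFKP and MPC1, of MPC2 and PFKL, and of PDHA1, SLC16A3, DLAT, SLC16A1 and SLC2A3, taken neighbour by neighbour, did overlap. ENO2, the neuronal enolase, was the lowest tested member at 0.274 ± 0.0562. Together the 34 genes took 0.996 to 1.12% of all counts in ATRA+DOX, 0.911 to 1.00% in ATRA, 1.04 to 1.12% in DOX and 0.984 to 1.07% in untreated libraries.

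Some of these levels depend on how reads over shared exons were assigned, and the strand setting of the counting is not given in the sources used here. A 422-base antisense gene, AC006064.4, lies wholly inside GAPDH exons and received 228998 counts, beside 453259 for GAPDH itself. ALDOA, the main aldolase of most tissues, had 1933 counts, while the 520-base AC093512.1 on its opposite strand had 14915. AC093512.2, on the same strand as ALDOA, shares 42.3% of ALDOA's exon bases and had 237 counts. Without a known strand setting, reads from a gene and from its antisense partner cannot be told apart. Exons shared on the same strand stay shared whatever that setting, so the level of ALDOA is uncertain. PDK2 shares 38.6% of its exon bases with SAMD14, MPC2 22.5% with DCAF6 and PDHA1 21.3% with MAP3K15, each on the opposite strand, and LDHB 33.4% with AC010197.2, which had 2 counts. Of the counts of LDHA and its 6 named pseudogenes together, 2.56% fell on the pseudogenes. For GAPDH and its 62 named pseudogenes that share was 0.147%.

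The comparison of ATRA with untreated cells asked how the retinoid altered the pathway with the hairpin not induced. NRIP1 itself was lower with ATRA, at 38.5, 41.1 and 51.9 CPM against 59.7, 58.9 and 53.3 CPM in untreated libraries (log2 change -0.39 ± 0.12, adjusted p = 0.0185), and that call stood in 9 of 14 alternative fits. LDHA, the glucose transporter SLC2A3 and the lactate transporter SLC16A1 fell, as did the kinases PDK1 and PDK3. The carrier subunit MPC1, the lactate exporter SLC16A3, PGAM1, PDK2 and the myeloid hexokinase HK3 rose. In all, 13 of 33 tested members were called at an adjusted p under 0.05 (edgeR's quasi-likelihood test, Benjamini-Hochberg over 16104 genes), 5 of them higher and 8 lower. That is 39.4% of the tested members, beside 28.9% of all genes tested, of which 15.7% were called higher and 13.2% lower. The median log2 change was 0.03 over the members and -0.01 over all genes. Of the 33 genes, 10 were higher and 8 lower in every ATRA library than in any untreated one, beside 45.3% of all genes that did not overlap (22.8% higher, 22.5% lower).

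**Figure D2:**
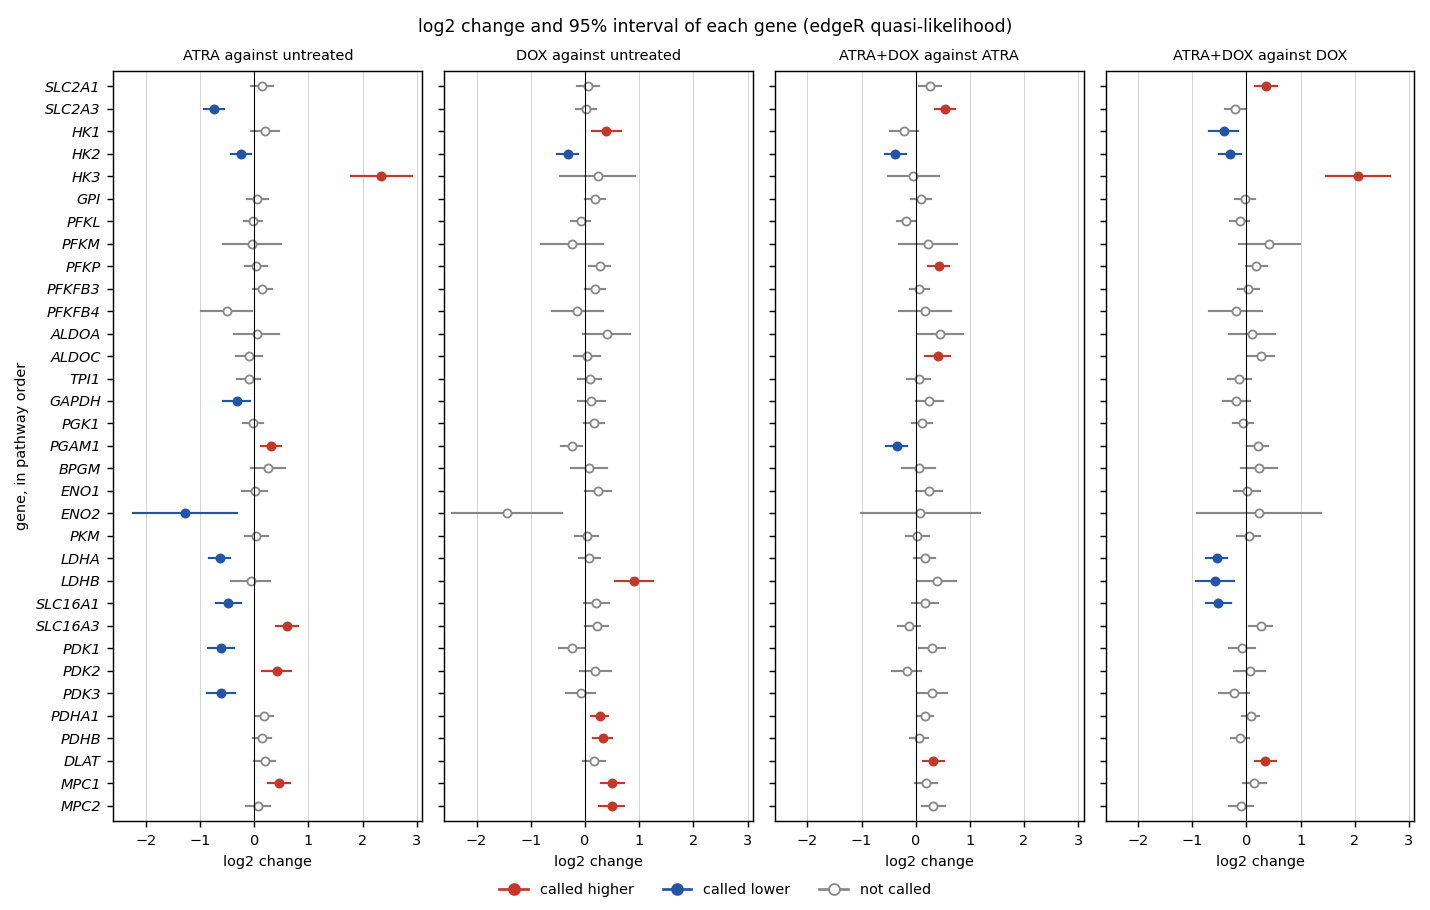
log2 change (x axis) with its 95% interval for each of the 33 tested members (rows, in pathway order) in the 4 comparisons (panels); filled points were called, open ones were not. HK3 stands at 2.34 in ATRA against untreated and at 2.06 in ATRA+DOX against DOX, and most other members lie within 1 log2 unit of 0.

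At glucose entry, SLC2A3 (chr12:7919230-7936275, minus strand, GRCh38), a high-affinity glucose transporter, had 66.1, 60.0 and 65.6 CPM in ATRA libraries, against 101, 110 and 110 CPM in untreated libraries. Every ATRA library was below every untreated one. The log2 change was -0.74 ± 0.09 (SE), or 0.597 times the untreated level (adjusted p = 1.48e-06). SLC2A1, the widely expressed glucose transporter, had 37.4 to 42.0 CPM in ATRA and 34.6 to 36.8 CPM in untreated libraries and was not called (log2 change 0.14, adjusted p = 0.283).

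HK3, a hexokinase found mainly in myeloid cells, had 9.66, 9.56 and 10.7 CPM in ATRA libraries, against 0.966, 2.31 and 2.38 CPM in untreated libraries. It rose 5.07-fold (log2 change 2.34 ± 0.27, adjusted p = 8.54e-07), the largest change of any tested member in this comparison. HK2, the inducible hexokinase that leads in many tumour lines, had 70.3, 58.4 and 61.3 CPM with ATRA and 75.2, 81.3 and 70.1 CPM without. These ranges overlapped, and its call was close to the threshold. HK1, the ubiquitous hexokinase, was not called (adjusted p = 0.265).

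In the middle of the pathway few members were called. None of GPI, PFKL, PFKM, PFKP, PFKFB3, PFKFB4, ALDOA, ALDOC, TPI1, PGK1, BPGM, ENO1 or PKM was called for ATRA. That does not show an absence of change. Every ATRA library was below every untreated one for PFKFB4 (log2 change -0.51) and above for BPGM (0.26). The 95% intervals of PFKM (-0.59 to 0.49) and ALDOA (-0.38 to 0.46) were wide. PGAM1 had 490, 539 and 455 CPM in ATRA libraries, against 433, 400 and 364 CPM in untreated libraries, without overlap (log2 change 0.31 ± 0.09, adjusted p = 0.0136). HK2, GAPDH and ENO2 were called lower with adjusted p of 0.0433 to 0.0478. GAPDH had 2646, 2706 and 2447 CPM with ATRA, against 3443, 3179 and 3147 CPM in untreated libraries, and its antisense overlap AC006064.4 moved the same way (log2 change -0.38, adjusted p = 0.0244). ENO2 stayed at or under 1.44 CPM in every library.

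Leaving out libraries 1 at a time ended several of these weaker calls. GAPDH and ENO2 lost theirs whichever of the 6 ATRA or untreated libraries was left out, with log2 changes of -0.35 to -0.27 and of -1.46 to -0.95. HK2 lost its call without ATRA replicate 2 or 3 (-0.19 and -0.21) and without untreated replicate 1 or 2 (-0.25 and -0.19). PGAM1 lost it without ATRA replicate 2 or untreated replicate 3 (0.25 each), and PDK2 without ATRA replicate 1 or untreated replicate 1 (0.33 and 0.35). The other 8 calls stood in each of those fits. Among the kinases, PDK3 lost its call with the libraries thinned to equal depth. PDK2 lost its call at equal depth too, and with the mitochondrial ribosomal RNA share as a term in the fit. PDK1 kept its call in every alternative fit.

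At the lactate branch, LDHA, the subunit that favours lactate formation, had 487, 502 and 458 CPM in ATRA libraries, against 824, 757 and 674 CPM in untreated libraries. Its log2 change was -0.64 ± 0.09 (adjusted p = 2.03e-05), and the groups did not overlap. SLC16A1, a monocarboxylate transporter that works in both directions, had 72.1, 70.1 and 73.7 CPM with ATRA and 97.1, 109 and 95.2 CPM without (log2 change -0.48 ± 0.11, adjusted p = 0.00271). Its antisense gene SLC16A1-AS1, far lower at a mean of 6.77 CPM with ATRA and 10.2 CPM without, fell too (-0.61, adjusted p = 0.0219). SLC16A3, the transporter known for lactate export from glycolytic cells, went the other way, with 327, 293 and 275 CPM in ATRA libraries, against 175, 203 and 210 CPM in untreated libraries (log2 change 0.61 ± 0.10, adjusted p = 7.28e-05); CSNK1D, which shares 5.4% of its exon bases, had a log2 change of 0.26 (adjusted p = 0.0197). LDHB, the subunit that favours the return of lactate to pyruvate, was at 15.0 to 18.7 CPM with ATRA and 17.4 to 20.2 CPM without, and was not called.

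At the mitochondrial gate, the 3 kinases of pyruvate dehydrogenase split. PDK1 had 15.9, 16.9 and 19.8 CPM in ATRA libraries, against 26.5, 26.0 and 27.7 CPM in untreated libraries (log2 change -0.62 ± 0.11, adjusted p = 0.000267). PDK3 had 8.90, 9.24 and 10.1 CPM with ATRA, against 14.0, 15.7 and 13.7 CPM without (log2 change -0.62 ± 0.13, adjusted p = 0.000856). Neither kinase's groups overlapped. PDK2, the most widely expressed of these kinases, had 18.1, 15.0 and 15.7 CPM with ATRA, against 10.9, 12.9 and 12.9 CPM without (log2 change 0.41 ± 0.13, adjusted p = 0.0224). Its opposite-strand neighbour SAMD14, with which it shares exon bases, had a log2 change of 0.48 (adjusted p = 0.0648). MPC1, an obligate subunit of the carrier, had 67.6, 79.7 and 65.6 CPM in ATRA libraries, against 55.0, 51.9 and 48.1 CPM in untreated libraries (log2 change 0.46 ± 0.10, adjusted p = 0.00134). Its partner MPC2 was not called (log2 change 0.07, adjusted p = 0.678), nor were the pyruvate dehydrogenase subunits PDHA1 (0.18, adjusted p = 0.0751), PDHB (0.14, adjusted p = 0.198) and DLAT (0.19, adjusted p = 0.134).

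**Figure D3:**
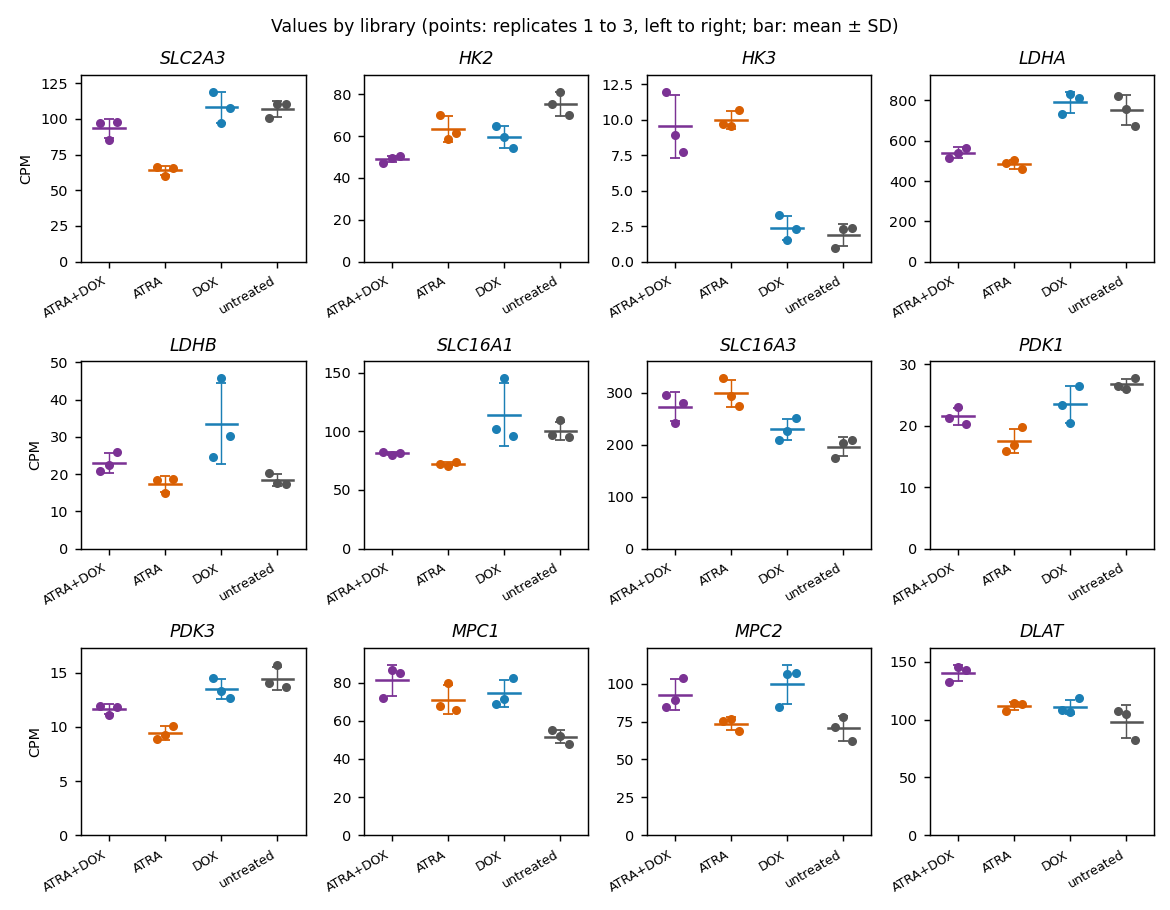
CPM (y axis, from 0) of 12 members in every library, by group on the x axis; points are replicates 1 to 3 from left to right and bars the mean ± SD. SLC2A3, LDHA and SLC16A1 sit lower in the 3 ATRA libraries than in any untreated library, HK3 is at 9.56 CPM or more in the ATRA libraries and at 2.38 CPM or less in the untreated ones, and LDHB is highest in DOX replicate 2.

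The promoters below are those of members whose ATRA call stood in each of the 6 fits that leave out 1 ATRA or untreated library, shown so that the members that fell (LDHA, PDK1, PDK3) can be read against those that rose (HK3, SLC16A3, MPC1). They are RefSeq sequences of build GRCh38.p14, running 5′ to 3′ on the gene's own strand over 250 bases before and 50 bases after the annotated gene start. Coordinates are chr11:18394313-18394612 (plus strand) for LDHA, chr2:172555123-172555422 (plus) for PDK1, chrX:24465036-24465335 (plus) for PDK3, chr5:176899297-176899596 (minus) for HK3, chr17:82228185-82228484 (plus) for SLC16A3 and chr6:166382891-166383190 (minus) for MPC1. Capitals mark ACGTG, a form of the hypoxia response element core, and CACGTG, the E-box that MYC with MAX can bind, on either strand. Each CACGTG holds ACGTG on both strands. The other form of the core, GCGTG, was not searched for and is not marked.
LDHA: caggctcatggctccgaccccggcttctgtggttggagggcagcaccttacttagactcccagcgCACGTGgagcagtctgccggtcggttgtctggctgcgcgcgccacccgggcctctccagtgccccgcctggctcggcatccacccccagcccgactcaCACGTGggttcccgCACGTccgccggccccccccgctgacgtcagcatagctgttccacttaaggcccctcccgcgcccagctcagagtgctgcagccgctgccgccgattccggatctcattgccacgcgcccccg
PDK1: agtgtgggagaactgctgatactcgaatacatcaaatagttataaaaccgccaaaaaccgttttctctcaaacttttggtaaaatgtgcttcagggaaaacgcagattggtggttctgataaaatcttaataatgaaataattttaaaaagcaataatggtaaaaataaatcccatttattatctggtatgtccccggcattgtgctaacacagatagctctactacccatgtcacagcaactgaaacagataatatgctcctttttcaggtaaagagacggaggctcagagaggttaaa
PDK3: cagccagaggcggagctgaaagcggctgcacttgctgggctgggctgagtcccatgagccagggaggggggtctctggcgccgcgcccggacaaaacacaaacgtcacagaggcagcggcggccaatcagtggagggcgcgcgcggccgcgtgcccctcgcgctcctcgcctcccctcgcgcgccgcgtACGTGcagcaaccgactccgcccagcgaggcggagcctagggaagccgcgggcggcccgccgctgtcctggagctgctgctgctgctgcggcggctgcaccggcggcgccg
HK3: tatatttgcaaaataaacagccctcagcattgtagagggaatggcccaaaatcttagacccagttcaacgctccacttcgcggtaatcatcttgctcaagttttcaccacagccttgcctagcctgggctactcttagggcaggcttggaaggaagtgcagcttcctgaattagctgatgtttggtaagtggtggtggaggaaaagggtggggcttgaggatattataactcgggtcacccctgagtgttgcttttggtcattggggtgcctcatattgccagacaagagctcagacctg
SLC16A3: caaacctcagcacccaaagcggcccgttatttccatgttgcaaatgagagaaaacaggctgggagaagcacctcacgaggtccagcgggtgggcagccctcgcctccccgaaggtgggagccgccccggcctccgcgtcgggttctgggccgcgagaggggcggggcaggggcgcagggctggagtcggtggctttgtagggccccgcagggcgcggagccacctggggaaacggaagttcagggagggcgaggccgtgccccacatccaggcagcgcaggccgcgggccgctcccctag
MPC1: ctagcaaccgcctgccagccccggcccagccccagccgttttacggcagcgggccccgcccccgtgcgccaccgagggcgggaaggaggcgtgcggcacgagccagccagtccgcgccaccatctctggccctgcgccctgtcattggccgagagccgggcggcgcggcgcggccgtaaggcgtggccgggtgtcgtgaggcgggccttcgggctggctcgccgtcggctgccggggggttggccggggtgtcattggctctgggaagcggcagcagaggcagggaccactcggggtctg

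LDHA held CACGTG at positions -185 and -87 from its gene start, and a further ACGTG on the opposite strand at -73. PDK3 held ACGTG at -61. The windows of HK3, SLC16A3, PDK1 and MPC1 held neither motif, which says only that these letters are not in these 300 bases. Of the members, 31 had an entry in the table, and SLC2A3, SLC16A1 and PFKFB2 did not. ACGTG was present in 12 of those 31 (38.7%), beside 21.6% of all 27305 promoters and 23.7% of the 15843 of protein-coding genes. CACGTG was present in 4 (12.9%), those of ALDOC, GAPDH, LDHA and PDHB, beside 7.43% of all promoters and 8.88% of coding ones. A direct repeat of AGGTCA with 5 bases between the copies, an ideal form of the element that retinoic acid receptors bind, was in none of the 31 and in 1 promoter of the whole table.

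DOX against untreated cells asked what switching on the hairpin did without retinoic acid. Both subunits of the mitochondrial pyruvate carrier, MPC1 and MPC2, rose, together with the pyruvate dehydrogenase subunits PDHA1 and PDHB, LDHB and HK1. The remaining pyruvate dehydrogenase subunit, DLAT, was not called (log2 change 0.17, adjusted p = 0.227). HK2 fell. These 7 calls, 6 higher and 1 lower, are 21.2% of the tested members, beside 15.2% of all genes tested, of which 8.08% were called higher and 7.10% lower. The median log2 change was 0.17 over the members and 0.01 over all genes. Of the 33 genes, 11 were higher and 3 lower in every DOX library than in any untreated one, beside 30.8% of all genes that did not overlap (17.0% higher, 13.9% lower). This comparison shares its untreated libraries with that of ATRA against untreated cells.

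MPC1 had 69.0, 71.3 and 82.6 CPM in DOX libraries, against 55.0, 51.9 and 48.1 CPM in untreated libraries (log2 change 0.51 ± 0.10, adjusted p = 0.00419). MPC2 had 84.9, 106 and 107 CPM in DOX libraries, against 71.4, 78.2 and 61.9 CPM in untreated libraries (log2 change 0.49 ± 0.11, adjusted p = 0.00657). For both carrier genes every DOX library was above every untreated one, and DCAF6, which shares exon bases with MPC2 on the other strand, was called higher too (log2 change 0.29, adjusted p = 0.0356). PDHB, the beta subunit of the first pyruvate dehydrogenase component, had 69.1, 73.9 and 68.7 CPM with DOX, against 61.0, 55.3 and 54.0 CPM without (log2 change 0.32 ± 0.08, adjusted p = 0.0121). PDHA1, its alpha subunit and the site of kinase control, had 128, 127 and 133 CPM with DOX, against 110, 110 and 101 CPM without (log2 change 0.27 ± 0.08, adjusted p = 0.0234).

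LDHB had 24.5, 45.7 and 30.3 CPM in DOX libraries, against 20.2, 17.5 and 17.4 CPM in untreated libraries. The groups did not overlap, and DOX replicate 2 stood above the other libraries. The log2 change was 0.91 ± 0.17 (adjusted p = 0.00271), and it was 0.53 (adjusted p = 0.0396) without DOX replicate 2. HK1 had 23.5, 27.5 and 20.4 CPM with DOX, against 17.8, 21.0 and 17.4 CPM without, with overlap (log2 change 0.39 ± 0.13, adjusted p = 0.0432). HK2 had 65.0, 59.7 and 54.1 CPM with DOX, against 75.2, 81.3 and 70.1 CPM without (log2 change -0.32 ± 0.09, adjusted p = 0.0271).

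The mitochondrial ribosomal RNA share moved with these results, being lower in each DOX library than in any untreated one. With that share as a term in the fit, none of the 33 members was called (77 genes of all tested were), and the log2 changes of the 7 genes were 0.11 to 0.39 for those called higher above and -0.37 for HK2. In these 6 libraries the share does not overlap between the groups, so its part and that of DOX cannot be told apart. Without untreated replicate 3 and DOX replicate 3 together, the libraries with the highest mitochondrial share and the lowest depth, none was called either (169 genes of all tested), although the log2 changes were then 0.22 to 0.93 for the 6 genes called higher and -0.32 for HK2. Left out singly, untreated replicate 3 ended the calls of MPC2 (0.41), PDHA1 (0.23), PDHB (0.29) and HK1 (0.35). DOX replicate 2 ended those of PDHA1 (0.28), PDHB (0.29), HK1 (0.27) and HK2 (-0.30), and DOX replicate 3 those of PDHA1 (0.26) and HK2 (-0.27). Untreated replicate 1 ended those of HK1 (0.38) and HK2 (-0.31), and untreated replicate 2 that of HK2 (-0.27). The calls of LDHB and MPC1 stood in all 6 of these fits.

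**Figure D4:**
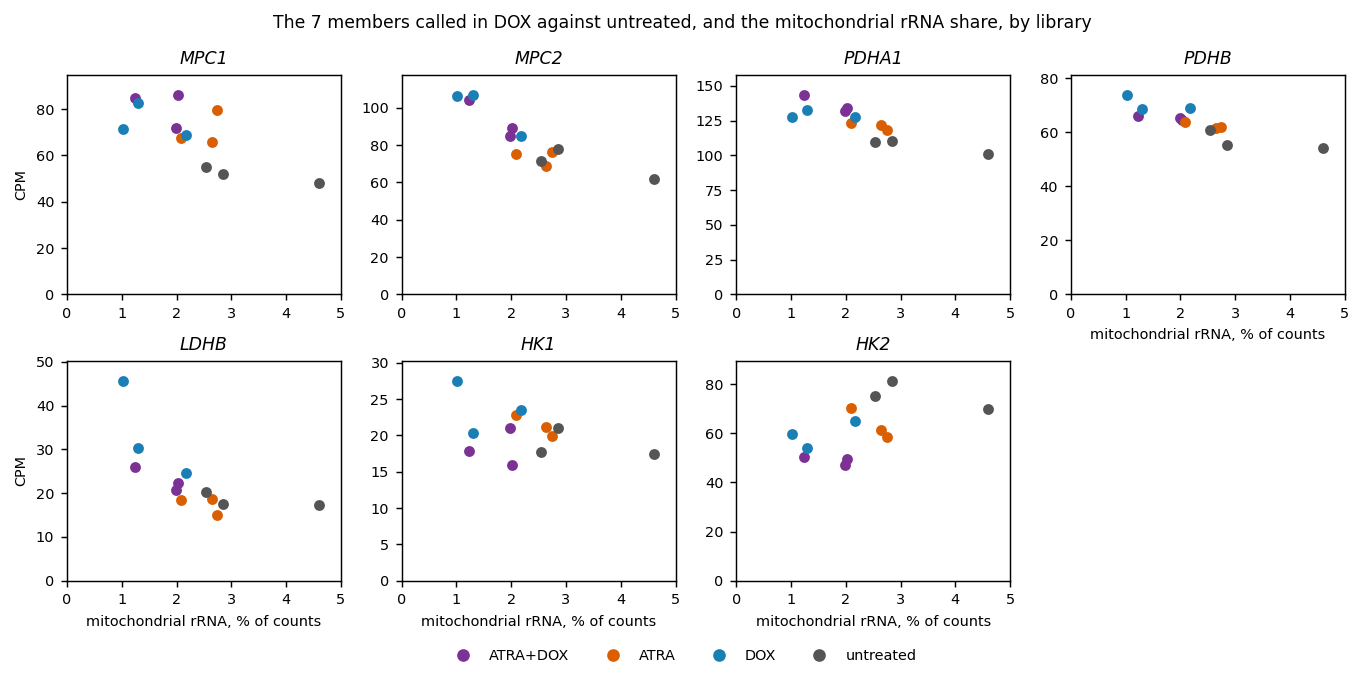
CPM of the 7 members called in DOX against untreated cells (y axis, from 0) and the mitochondrial ribosomal RNA share of counts in percent (x axis), 1 point per library and 1 colour per group. The DOX libraries lie at 1.02 to 2.18% and the untreated libraries at 2.54 to 4.60%, so group and share move together.

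ATRA+DOX against ATRA asked what the hairpin did under retinoic acid. SLC2A3 was higher, together with the phosphofructokinase PFKP, the aldolase ALDOC and the pyruvate dehydrogenase subunit DLAT, while HK2 and PGAM1 were lower. These 6 calls, 4 higher and 2 lower, are 18.2% of the tested members, beside 4.43% of all genes tested, of which 1.89% were called higher and 2.54% lower. The median log2 change was 0.17 over the members, of which 26 of 33 were positive, and lay within 0.01 of 0 over all genes. Of the 33 genes, 14 were higher and 2 lower in every ATRA+DOX library than in any ATRA library, beside 26.5% of all genes that did not overlap in either direction (13.1% higher, 13.4% lower). This comparison shares its ATRA libraries with that of ATRA against untreated cells.

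SLC2A3 had 96.9, 85.5 and 97.8 CPM in ATRA+DOX libraries, against 66.1, 60.0 and 65.6 CPM in ATRA libraries (log2 change 0.55 ± 0.09, adjusted p = 0.000805). Its lowest combined library was above its highest ATRA library. PFKP, the platelet-type isoform of the enzyme that commits sugar to glycolysis, had 209, 210 and 259 CPM with both agents, against 192, 162 and 151 CPM with ATRA (log2 change 0.42 ± 0.10, adjusted p = 0.0131). ALDOC had 20.1, 17.7 and 20.7 CPM in ATRA+DOX, against 15.1, 14.2 and 14.8 CPM in ATRA libraries (log2 change 0.40 ± 0.11, adjusted p = 0.0438). DLAT, the acetyl-transferring core of pyruvate dehydrogenase, had 132, 145 and 143 CPM with both agents, against 108, 115 and 113 CPM with ATRA (log2 change 0.33 ± 0.09, adjusted p = 0.0471).

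HK2 had 47.3, 49.5 and 50.3 CPM in ATRA+DOX libraries, against 70.3, 58.4 and 61.3 CPM in ATRA libraries (log2 change -0.38 ± 0.09, adjusted p = 0.0232). PGAM1 had 368, 410 and 386 CPM with both agents, against 490, 539 and 455 CPM with ATRA (log2 change -0.35 ± 0.09, adjusted p = 0.0301). None of the 6 genes overlapped between these groups. The mitochondrial ribosomal RNA share was lower in each ATRA+DOX library than in any ATRA library, and with that share as a term ALDOC (0.34) and DLAT (0.26) were not called while the other 4 genes were. Because the share does not overlap between these groups, its part and that of DOX cannot be told apart, for those 4 genes too. Only the call of SLC2A3 stood whichever of the 6 libraries was left out. ALDOC lost its call in each such fit (0.37 to 0.47), PFKP without ATRA+DOX replicate 3 or ATRA replicate 2 or 3 (0.32, 0.40 and 0.35), and DLAT without any library but ATRA+DOX replicate 1 (0.30 to 0.35). HK2 kept it in 1 fit, without ATRA replicate 2, and gave -0.40 to -0.28 in the other 5. PGAM1 kept it in 1 fit, without ATRA replicate 3, and gave -0.39 to -0.28 in the other 5.

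ATRA+DOX against DOX asked what retinoic acid did once the hairpin was on. LDHA, LDHB and SLC16A1 of the lactate branch fell, as did HK1 and HK2, while HK3, SLC2A1 and DLAT rose. SLC16A3 was not called (log2 change 0.26, adjusted p = 0.0740), although it was with the mitochondrial ribosomal RNA term (0.28, adjusted p = 0.0377) and without ATRA+DOX replicate 2 (0.33, adjusted p = 0.0450). These 8 calls, 3 higher and 5 lower, are 24.2% of the tested members, beside 19.0% of all genes tested, of which 10.7% were called higher and 8.24% lower. The median log2 change was 0.01 over the members and -0.01 over all genes. Of the 33 genes, 6 were higher and 5 lower in every ATRA+DOX library than in any DOX one, beside 30.2% of all genes that did not overlap (16.7% higher, 13.5% lower). The ATRA+DOX libraries are those of the preceding comparison and the DOX libraries those set against untreated cells.

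HK3 had 11.97, 8.91 and 7.70 CPM in ATRA+DOX libraries, against 3.26, 1.54 and 2.30 CPM in DOX libraries, a 4.17-fold rise (log2 change 2.06 ± 0.28, adjusted p = 1.45e-05). LDHA had 513, 541 and 566 CPM with both agents, against 732, 832 and 810 CPM with DOX (log2 change -0.55 ± 0.09, adjusted p = 0.000189). SLC16A1 had 82.4, 80.2 and 81.2 CPM with both agents, against 102, 145 and 96.0 CPM with DOX (log2 change -0.52 ± 0.11, adjusted p = 0.00237). These 3 genes did not overlap between the groups. Without DOX replicate 2, the highest for SLC16A1, its log2 change was -0.29 (adjusted p = 0.0344).

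SLC2A1 had 43.5, 47.0 and 53.2 CPM in ATRA+DOX, against 35.0, 40.2 and 35.7 CPM in DOX libraries (log2 change 0.36 ± 0.10, adjusted p = 0.0133), and DLAT had 132, 145 and 143 CPM with both agents, against 108, 107 and 118 CPM with DOX (log2 change 0.35 ± 0.09, adjusted p = 0.0121). LDHB had 20.8, 22.4 and 26.0 CPM with both agents, against 24.5, 45.7 and 30.3 CPM with DOX (log2 change -0.58 ± 0.17, adjusted p = 0.0176). Its groups overlapped. HK1 (-0.42 ± 0.13, adjusted p = 0.0271) and HK2 (-0.30 ± 0.10, adjusted p = 0.0291) were the other genes called lower. SLC2A3, called lower for ATRA in cells without doxycycline, had 85.5 to 97.8 CPM with both agents and 97.1 to 119 CPM with DOX (log2 change -0.21 ± 0.09, adjusted p = 0.115), and was called without DOX replicate 2 (-0.29, adjusted p = 0.0383).

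Leaving out single libraries ended 5 of these 8 calls at least once. LDHB lost its call without DOX replicate 2 (-0.20) and without ATRA+DOX replicate 1 or 2 (-0.50 and -0.57), SLC2A1 without ATRA+DOX replicate 3 (0.28) and DLAT without ATRA+DOX replicate 2 (0.31). HK1 lost it without ATRA+DOX replicate 2 or 3 (-0.33 and -0.40) or DOX replicate 2 (-0.29). HK2 kept it in 1 fit, without DOX replicate 3, and gave -0.32 to -0.23 in the other 5. The calls of HK3, LDHA and SLC16A1 stood throughout.

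The interaction term asks whether the ATRA effect differed between cells with and without doxycycline. No member was called by edgeR's test, beside 0.267% of all genes (43, with 0.0435% higher and 0.224% lower). DESeq2 called 1 member, SLC2A3, and 120 of all genes. The lack of a call does not show that the ATRA effect was equal in both settings. The term for SLC2A3 was 0.53 ± 0.13 on the log2 scale (adjusted p = 0.0810), and it was 0.63 (adjusted p = 0.00722) without DOX replicate 1. Over its 19 alternative fits the adjusted p lay between 0.00722 and 0.334. HK1 had -0.61 ± 0.18 (adjusted p = 0.203) and was called without DOX replicate 1 (-0.65, adjusted p = 0.0481), as was LDHB (-0.75, adjusted p = 0.0299). Leaving out DOX replicate 1 also raised the calls over all genes from 43 to 747. PDK1 had 0.54 ± 0.16 (adjusted p = 0.214) and was not called in any alternative. For the members called for ATRA in 1 setting of doxycycline and not in the other, no difference between the settings was called by edgeR's test on all 12 libraries, and SLC2A3, HK1 and LDHB alone were called in an alternative fit.

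Shares within each enzyme family, computed from counts per kilobase, put these changes side by side and are given without a test. HK2 made up 58.4 ± 4.90% of hexokinase transcripts in ATRA+DOX, 61.9 ± 1.80% in ATRA, 68.6 ± 1.36% in DOX and 77.9 ± 1.77% in untreated cells, while HK3 made up 20.7 ± 3.66%, 18.0 ± 1.67%, 5.02 ± 1.66% and 3.58 ± 1.51% in the same groups. SLC16A3 made up 66.4 ± 2.05% of the lactate transporter pair in ATRA+DOX, 70.9 ± 2.04% in ATRA, 54.5 ± 6.33% in DOX and 53.5 ± 2.67% in untreated cells. PDK2 made up 41.3 ± 3.64%, 49.1 ± 3.997%, 37.3 ± 2.21% and 32.1 ± 1.83% of the kinase transcripts in those groups. PFKP made up 65.9 ± 1.00% of the phosphofructokinases in ATRA+DOX, 56.2 ± 1.53% in ATRA, 61.3 ± 0.607% in DOX and 55.4 ± 0.459% in untreated cells, and PFKM, the muscle isoform, stayed under 1% in every library. LDHA remained the main lactate dehydrogenase, with 91.9 ± 0.513% in ATRA+DOX, 93.0 ± 1.04% in ATRA, 92.0 ± 1.98% in DOX and 95.2 ± 0.258% in untreated cells.

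**Figure D5:**
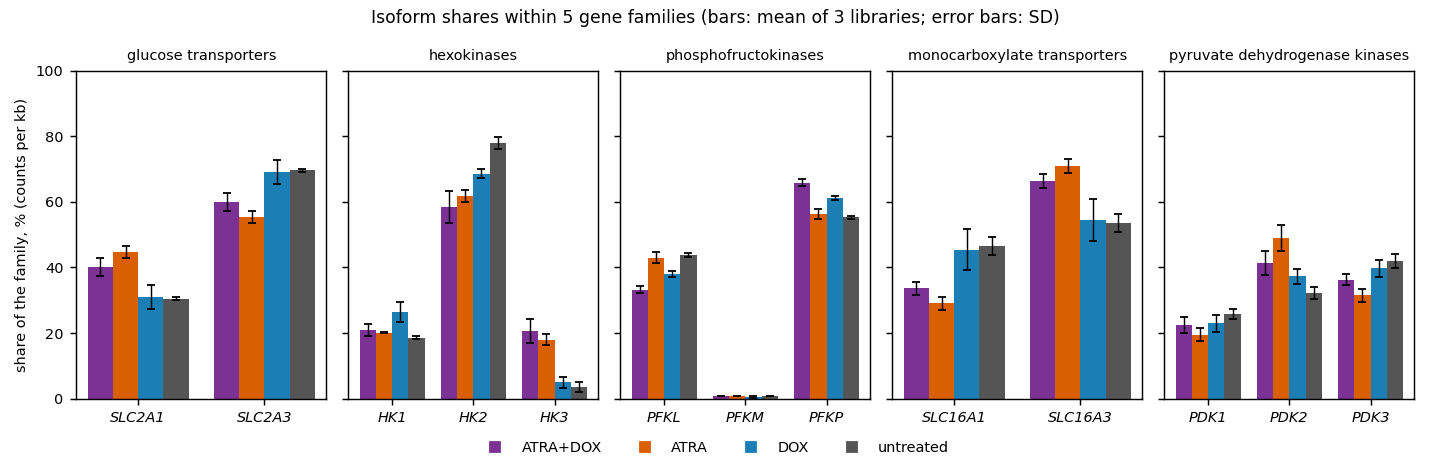
Share of each isoform within 5 gene families, in percent of the family's counts per kilobase; bars are means of 3 libraries, error bars the SD, and colours the groups. HK3 stands near 20% of hexokinase transcripts in both groups with ATRA and at 5.02% or less in the others, and SLC16A3 at 66.4 and 70.9% of the lactate transporter pair in the groups with ATRA.

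Over the 4 comparisons, 22 of the 33 tested members (66.7%) were called at least once, beside 41.7% of all genes tested. HK2 was called in all 4, lower each time, but the comparisons share libraries and none of its calls stood in every alternative fit. Of the 6 fits without 1 library, its call stood in 2 for ATRA and 2 for DOX against untreated cells. It stood in 1 for ATRA+DOX against ATRA and in 1 for ATRA+DOX against DOX. The 11 members called in none were GPI, PFKL, PFKM, PFKFB3, PFKFB4, ALDOA, TPI1, PGK1, BPGM, ENO1 and PKM, with log2 changes of -0.51 to 0.45 and adjusted p of 0.0958 or more. Of these, PFKM was called higher with ATRA+DOX against DOX when DOX replicate 1 was left out (0.95, adjusted p = 0.0178), ENO1 higher with DOX against untreated cells without the same library (0.33, adjusted p = 0.0376), and PFKFB4 lower with ATRA when only those groups were fitted (-0.52, adjusted p = 0.0488). They include isomerase, mutase and kinase steps at both ends of the pathway. PKM, the last step before pyruvate, averaged 942 ± 105 CPM in ATRA+DOX, 921 ± 80.6 in ATRA, 916.5 ± 69.2 in DOX and 898 ± 14.5 in untreated cells, and the 95% interval of its ATRA change was -0.17 to 0.25 on the log2 scale. PFKFB3, the most abundant of the activator-forming enzymes here, averaged 57.0 ± 4.48 CPM in ATRA+DOX, 54.2 ± 4.12 in ATRA, 55.5 ± 2.49 in DOX and 48.9 ± 1.25 in untreated cells.

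The neighbouring genes of the pathway, taken from lists of other isoforms and connected routes, moved as follows with ATRA against untreated cells. These lists were chosen with earlier results of these data known. Their shares of called genes, here and below, are therefore descriptive and are no test of enrichment. Of 19 tested glucose and pyruvate genes outside the set, 7 were called higher and 2 lower (47.4%), beside 28.9% of all genes called, 15.7% higher and 13.2% lower. SLC2A5, a fructose transporter, had 384, 328 and 398 CPM in ATRA libraries, against 16.0, 13.7 and 16.3 CPM in untreated libraries (log2 change 4.59 ± 0.14, adjusted p = 3.22e-16). FBP1, which runs the phosphofructokinase step backwards, averaged 7.28 ± 1.06 CPM with ATRA and 1.04 ± 0.393 CPM without (2.73 ± 0.29, adjusted p = 2.30e-07). PGAM2, the muscle mutase, averaged 9.09 ± 0.918 CPM with ATRA and 1.85 ± 0.7996 CPM without (2.21 ± 0.26, adjusted p = 8.69e-07).

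Of 8 tested pentose phosphate genes, 2 were called higher and none lower, H6PD (0.62 ± 0.11, adjusted p = 0.000152) and PGD (0.30 ± 0.09, adjusted p = 0.0132). Of 16 tested genes of the citric acid cycle, which burns the acetyl-CoA made from pyruvate, 5 were called higher and none lower. These shares, 25% and 31.2%, lie near the 28.9% of all genes called. OGDH, a subunit of oxoglutarate dehydrogenase, averaged 161 CPM with ATRA and 112 CPM without (0.53 ± 0.09, adjusted p = 0.000118). The medians were 0.15 for the pentose phosphate list and 0.16 for the cycle, beside -0.01 over all genes. With DOX against untreated cells, 1 pentose phosphate gene (TALDO1, 0.28) and 3 cycle genes (SDHB, 0.46; SDHD, 0.39; IDH3G, 0.24) were called higher and none lower, 12.5% and 18.8% of the lists beside 15.2% of all genes. The medians of those lists were 0.15 and 0.18, beside 0.01 over all genes. None of these 4 genes was called with the mitochondrial ribosomal RNA term, where their log2 changes were 0.09 to 0.17. SDHB and SDHD lost their calls without DOX replicate 2 (0.38 and 0.22) or untreated replicate 3 (0.38 and 0.32), and IDH3G and TALDO1 lost theirs in 5 of the 6 fits without a library (0.19 to 0.31). Of 14 alternative fits in all, the call of SDHB stood in 10, SDHD in 9, TALDO1 in 4 and IDH3G in 1.

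Of 13 tested hypoxia targets outside glycolysis, 7 were called lower and 1 higher with ATRA, with a median log2 change of -0.43, beside 13.2% of all genes called lower and 15.7% higher. DDIT4, a stress-induced brake on mTOR, averaged 314 CPM with ATRA and 469 CPM without (-0.58 ± 0.09, adjusted p = 4.03e-05). BNIP3, a mitophagy receptor, averaged 32.1 CPM with ATRA and 49.8 CPM without (-0.63 ± 0.10, adjusted p = 4.35e-05), and KDM3A, a histone demethylase, 32.9 CPM with ATRA and 50.3 CPM without (-0.61 ± 0.10, adjusted p = 5.54e-05). Of 14 tested regulators of glycolysis, 5 were called higher and 1 lower (42.9%, beside 28.9% of all genes). EPAS1, a hypoxia-inducible factor subunit, had 118, 110 and 126 CPM in ATRA libraries, against 44.0, 41.8 and 38.9 CPM in untreated libraries (1.51 ± 0.09, adjusted p = 1.33e-11). TXNIP, which restrains glucose uptake, had 250, 238 and 264 CPM in ATRA libraries, against 111, 120 and 109 CPM in untreated libraries (1.14 ± 0.10, adjusted p = 1.29e-08). MLXIPL, a glucose-responsive transcription factor, had 380 counts over the ATRA libraries and 2 over the untreated ones. These calls for ATRA, as printed by gene here, stood in 14 of 14 alternative fits except for PGD, which lost its call without untreated replicate 3 (0.25) and without that library and DOX 3 together (0.25).

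In the other comparisons fewer of these neighbours were called. With DOX against untreated cells, 3 of the 19 other glucose and pyruvate genes, LDHD, DLD and FBP1, were called higher, as were TXNIP among the regulators and FAM162A among the hypoxia targets, of which 3 others were called lower; 15.2% of all genes were called there. Of 14 alternative fits, the call of FAM162A stood in 12, LDHD in 11, DLD in 8, FBP1 in 5 and TXNIP in 4. With ATRA+DOX against ATRA, LDHD and SLC2A5 were called higher and PGAM2 lower, the regulators TXNIP (-0.62 ± 0.10, adjusted p = 0.000496) and EPAS1 (-0.47 ± 0.08, adjusted p = 0.00126) were called lower, and 1 hypoxia target was called higher (DDIT4) and 2 lower, where 4.43% of all genes were called. The calls of LDHD, TXNIP and EPAS1 stood in all 14 alternative fits, those of DDIT4 in 9, PGAM2 in 8 and SLC2A5 in 4. No pentose phosphate or citric acid cycle gene was called there by edgeR's test. With ATRA+DOX against DOX, 4 of the 19 glucose and pyruvate genes were called higher and 1 lower, 3 of 8 pentose phosphate genes and 2 of 16 cycle genes higher with none lower, 1 of 13 hypoxia targets higher with 4 lower, and 4 of 14 regulators higher with 1 lower. Of all genes 19.0% were called there, and the called share was 26.3% of the glucose and pyruvate list, 37.5% of the pentose phosphate list, 12.5% of the cycle, 38.5% of the hypoxia targets and 35.7% of the regulators. SLC2A5 had 391, 500.2 and 565 CPM in ATRA+DOX libraries, against 15.6, 18.6 and 15.7 CPM in DOX libraries (4.83 ± 0.14, adjusted p = 6.37e-16).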

How the data were processed

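Total RNA-seq was deposited by the authors as 1 table of raw read counts per gene for the 12 libraries. The tools named in the submitters' processing notes are STAR, HTSeq and FastQC, with the build GRCh38. Tool versions, the gene annotation used for counting and whether strand was used are not given in the sources used here. The table also had 23 empty columns. Samples were grouped by their labels, 3 per group. Gene symbols were matched to the gene IDs of the table from a separate list of gene names.

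Genes were filtered with filterByExpr (16104 kept) and scaled by TMM. They were tested with edgeR 4.0.16 (quasi-likelihood, limma 3.58.1, R 4.3.3) in 1 model of 4 group means over all 12 libraries, with Benjamini-Hochberg adjustment over all genes; a gene was called at an adjusted p under 0.05. The SE is the absolute log2 change divided by the square root of the test's F statistic, and the 95% intervals are built from it. The biological coefficient of variation of the fit was 9.54%. CPM used TMM-scaled library totals, and values per kilobase used GENCODE 29 exon lengths. The fit was checked on counts simulated with its own dispersions and no effect shared by the genes of a library. That check therefore does not cover the difference in mitochondrial ribosomal RNA share between groups. Promoters were read from RefSeq (GRCh38.p14) with Python 3.11.15 and pandas 2.3.3, and figures were drawn with matplotlib 3.10.9.

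Every member could be named. Full statistics were given for called members, or for the 10 with the smallest adjusted p where more were called, and for the 3 smallest p in the interaction. Of each of 6 neighbouring lists, up to 3 called genes with the smallest adjusted p per comparison could be named. The members and lists were chosen with earlier results of these data known. Alternatives were DESeq2 1.42.0, library-size scaling, no filter, only the groups compared, a replicate block, thinning to equal depth (2685984 counts), a mitochondrial ribosomal RNA term, and libraries left out singly or as the pair untreated 3 and DOX 3.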

Additional observations from a re-analysis of the deposited data

Results flagged for a closer look

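For 2 regulators of glycolysis outside the set, the ATRA effect differed between cells with and without doxycycline by the interaction term of edgeR's quasi-likelihood test. TXNIP, which restrains glucose uptake, had 193, 146 and 148 CPM with both agents, 250, 238 and 264 CPM with ATRA alone, 136, 152 and 130 CPM with DOX alone, and 111, 120 and 109 CPM in untreated libraries. Its interaction term was -0.93 ± 0.14 on the log2 scale (adjusted p = 0.00451), and it was called in 19 of 19 alternative fits (-1.07 to -0.86). EPAS1, a hypoxia-inducible factor subunit, had 84.1, 83.1 and 87.8 CPM with both agents, 118, 110 and 126 CPM with ATRA alone, 48.6, 42.7 and 45.7 CPM with DOX alone, and 44.0, 41.8 and 38.9 CPM in untreated libraries. Its term was -0.61 ± 0.12 (adjusted p = 0.0304), and it was called in 9 of 19 alternative fits (-0.67 to -0.54, adjusted p up to 0.196).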

How the results depend on the processing

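Of the 475 values that the alternatives gave for the 34 calls of members, none reversed, 339 stayed past the threshold and 136 did not; 11 of the 34 calls stood in every alternative. With ATRA against untreated cells, 9 to 14 members were called in all alternatives (9 to 10 with 1 library left out). Of all genes 2709 to 5616 were called in those alternatives (3455 to 4006 with 1 library left out), against 4652. With DOX against untreated cells, 3 were called when only those groups were fitted (1573 of all genes). None was called with the mitochondrial ribosomal RNA term (77 of all genes) or without untreated 3 and DOX 3 together (169 of all genes). With 1 library left out 3 to 9 were called. The count of all genes then ran between 659 (without DOX replicate 2) and 4326 (without DOX replicate 1), against 2446. With ATRA+DOX against ATRA, 2 were called with no filter on low counts (716 of all genes), 3 at equal depth, and 1 to 3 with 1 library left out. The count of all genes with 1 library left out was 264 to 907, against 713. With ATRA+DOX against DOX, 5 were called when only those groups were fitted, 10 with the mitochondrial ribosomal RNA term, and 5 to 8 with 1 library left out. Of all genes 2210, 3425 and 2195 to 3898 were called in those fits, against 3054. In the interaction, DESeq2 called 1 (120 of all genes, against 43), and 0 to 3 were called with 1 library left out. The 3 came without DOX replicate 1, where 747 of all genes were called. For these counts the cause was not tested. At equal depth 2709, 1174, 389 and 1852 genes of all were called in the 4 comparisons, in the order just given, against 4652, 2446, 713 and 3054; the least deep library sets that depth. The median log2 change of all genes moved by at most 0.037 under any alternative.

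Replicate numbers did not pair the libraries: same-numbered deviations correlated at -0.244 to 0.267 and differently numbered ones at -0.248 to 0.334, and 3 of 12 libraries correlated best with their own number. With the replicate block 11, 6, 4 and 8 members were called in the 4 comparisons and 0 in the interaction. Of all genes 4677, 2349, 729 and 3052 were called with that block, and 54 in the interaction.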

Other observations

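LDHD, a mitochondrial D-lactate dehydrogenase, had 18.5, 14.6 and 14.0 CPM with both agents, 8.52, 6.80 and 6.27 CPM with ATRA alone, 14.5, 10.7 and 14.6 CPM with DOX alone, and 7.54, 8.66 and 7.13 CPM in untreated libraries. It rose with ATRA+DOX against ATRA (log2 change 1.12 ± 0.17, adjusted p = 0.000303, edgeR's quasi-likelihood test) and with DOX against untreated cells (0.73 ± 0.17, adjusted p = 0.0094), and with ATRA against untreated cells its log2 change was -0.09 (adjusted p = 0.753). The first call stood in 14 of 14 alternative fits. The second stood in 11 of 14, and was lost with the mitochondrial ribosomal RNA term (0.90), without untreated replicate 3 (0.67) and without that library and DOX 3 together (0.63).

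Of 9 tested glycogen genes, 2 were called lower and none higher with ATRA against untreated cells (22.2%, beside 28.9% of all genes), GBE1, the branching enzyme (-0.59 ± 0.09, adjusted p = 5.11e-05), and PGM2, a phosphopentomutase (-0.41 ± 0.09, adjusted p = 0.0014). The same genes were called higher with ATRA+DOX against ATRA, where GBE1 averaged 33.5 CPM with both agents and 24.7 CPM with ATRA (0.44 ± 0.09, adjusted p = 0.00827) and PGM2 105 and 76.5 CPM (0.46 ± 0.09, adjusted p = 0.00404). These comparisons share their ATRA libraries. With DOX against untreated cells 2 glycogen genes were called higher and none lower, GYG1 (0.41 ± 0.08, adjusted p = 0.00435) and PYGB (0.26 ± 0.08, adjusted p = 0.0305), and with ATRA+DOX against DOX GBE1 was called lower (-0.37). For DOX, the call of GYG1 stood in 12 of 14 alternative fits and was lost with the mitochondrial ribosomal RNA term (0.36, adjusted p = 0.288) and without untreated 3 and DOX 3 together (0.36, adjusted p = 0.0801). That of PYGB stood in 3 of 14, and was also lost in both of these fits (0.25 and 0.30) and in 5 of the 6 fits without 1 library (0.23 to 0.28).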
